A study of Physcomitrium patens with 5 samples.

Results

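Short loci that are read uniquely were examined in the moss Physcomitrium patens: loci under 0.5 kb with a maxMultiRatio of 0 whose RPKM averaged 0.5 or more across the 5 libraries. RPKM is a read count divided by locus length and by the reads of the library. The fraction called maxMultiRatio came without a definition, and only loci above 0 have fractional reads, so it is taken to mark loci that share reads with other places. The rule found 178 loci among the 31775 listed. They were chosen by their length, maxMultiRatio and mean RPKM, so these are given as a description, whereas the contrast between treatments was not part of the rule.

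All libraries come from protonemata, the filamentous juvenile tissue of the moss, of a line that carries an inducible overexpression construct for PpARFC2, switched on by β-estradiol. At an age of 7 days the tissue was treated for 16 hours with 1 µM β-estradiol (3 libraries) or with 0.01% DMSO, the solvent (2 libraries). The DMSO controls carry the inducible construct too, and no library of an untransformed line was included, so effects of PpARFC2 and of the inducer cannot be told apart. The labels do not tell whether replicates were grown as separate cultures. The p-values therefore measure the spread among libraries, which may be technical.

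PpARFC2 is a class C auxin response factor, from a family of proteins that control the transcription of genes responding to the plant hormone auxin. Short gene models in a plant genome may encode small proteins and secreted peptides. They may also be incomplete models of longer transcripts or segments that are not genes. At a given RPKM a short locus collects fewer reads than a long one. No source used here links the IDs to gene names, so no function is given for any of these loci, tissue markers were not checked, and PpARFC2 itself was not analysed here.

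The libraries hold 17.6 to 27.7 M reads (10 to the power of 6) in loci. DMSO 1 and β-estradiol 1 are the deeper libraries, with totals of 56.3 and 56.0 M reads behind the RPKM, and the other 3 have 37.3 to 39.4 M. Reads came from 100 bp pairs whose 2 mates seem to enter the counts one by one. Reads are therefore not independent molecules, and intervals cover counting error only. At the median length of the 178 loci, 0.314 kb, 3 reads correspond to 0.170 to 0.256 RPKM.

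Most short loci were silent. Of the 4528 unique loci under 0.5 kb, 3613 (79.8%) had no read in any library, compared with 3443 of 24195 longer unique loci (14.2%). The level of 0.5 RPKM was reached by 178 short loci (3.93%) and by 15223 longer ones (62.9%). The share that reached it was 3.11% from 0.1 to 0.2 kb, 6.36% from 0.4 to 0.5 kb, 18.2% from 0.6 to 1 kb and 78.7% from 2 kb. A further 61 loci under 0.5 kb reached the level with a maxMultiRatio above 0 and are not members. The first of them outside the rule, at a maxMultiRatio of 0.0002, has a mean of 279 RPKM.

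The rule has no gap at its edges. The longest members are 0.498 kb long, with means of 5.55 and 0.697 RPKM, and the shortest loci beyond it, of 0.5 and 0.501 kb, have means of 1.04, 5.71 and 0.789 RPKM. The lowest member has a mean of 0.508 RPKM, and the highest short locus below the level one of 0.498 RPKM.

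The short loci differ from longer ones in how they are annotated. The length is a multiple of 3 bases for 143 of the 178 (80.3%), so these lengths look like coding lengths without untranslated regions. Among longer unique loci of at least 0.5 RPKM the share is 33.1%. The trait is not particular to the members. Among short unique loci below the level the share is 92.3%, and among the 61 short loci with a maxMultiRatio above 0 it is 86.9%. For unique loci of at least 0.5 RPKM it was lower at greater length. It was 97.6% at 0.1 to 0.2 kb, 68.1% at 0.4 to 0.5 kb and 34.2% at 0.6 to 1 kb. Locus numbers usually end in 0 in this ID scheme, but 42 of the 178 (23.6%) end in another digit. That share is 1.66% among longer unique loci of at least 0.5 RPKM and 10.1% among the short unique loci below the level. The loci closest in kind have it too. It is 33.3% at 0.5 to 0.6 kb and 16.6% at 0.6 to 1 kb among unique loci of at least 0.5 RPKM. Among the 61 short loci with a maxMultiRatio above 0 it is 47.5%. Members with such a number were longer (median 0.395 kb against 0.297 kb) and had a median level of 1.72 RPKM against 1.36 RPKM.

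**Figure D1:**
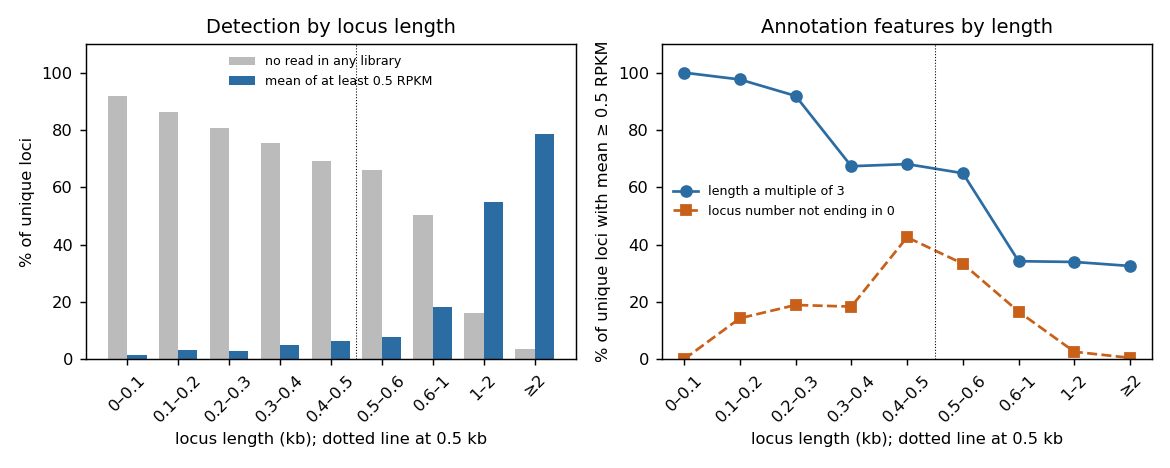
Left: share of unique loci (%) without a read in any library and with a mean of at least 0.5 RPKM, by locus length in kb. Right: among loci with at least 0.5 RPKM, the share (%) whose length is a multiple of 3 and whose locus number does not end in 0; the first is 97.6% at 0.1 to 0.2 kb and 34.2% at 0.6 to 1 kb, and the second peaks at 42.6% at 0.4 to 0.5 kb.

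Levels were low. The median of the 178 was 1.42 RPKM (quartiles 0.820 and 2.93), against 3.67 RPKM among the longer unique loci that passed the same filter. The median number of reads per library was 18.9 for the short loci and 481 for the longer ones. Together the short loci made up 0.465 to 0.529% of summed RPKM in a library. The 4 with a mean of at least 50 RPKM supplied 50.1 to 61.4% of that sum. Between 164 and 177 of the 178 had a read in a given library, and 156 had reads in all 5.

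The most abundant was a locus of 0.300 kb under the ID prefix Pp3c1. It stood at 327 and 254 RPKM in DMSO and at 351, 388 and 436 RPKM in β-estradiol. The groups did not overlap, but the difference did not pass the test (log2 change 0.44, SE 0.19, limma adjusted p = 0.241). The next, of 0.472 kb under Pp3c25, stood at 102 and 279 RPKM in DMSO and at 60.7, 87.7 and 98.3 RPKM in β-estradiol. All 3 β-estradiol values were below both DMSO values, and the DMSO libraries differed more from each other than DMSO 1 did from β-estradiol (log2 change -1.06, SE 0.45, limma adjusted p = 0.235). It passed with depth class as a term (limma adjusted p = 0.0107) and without DMSO 1 (0.0183). A locus of 0.162 kb under Pp3c24 was nearly equal in the 2 treatments. It stood at 27.7 and 34.3 RPKM in DMSO and at 27.6, 29.9 and 36.2 RPKM in β-estradiol, and the groups overlapped.

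The design asks which transcripts change after induction, and 9 of the 178 short loci rose in β-estradiol while 0 passed the test as lower. The test was limma on log2(RPKM + 0.5) over all 17429 loci that averaged 0.5 RPKM or more, and a locus is called at an adjusted p (Benjamini-Hochberg) under 0.05. The 9 are 5.06% of the short loci, where 1.58% of all tested loci were called higher and 2.95% lower. In tissue sampled in bulk, more cells that express a locus and more RNA per cell cannot be told apart. At an unadjusted p under 0.05, 27 short loci were higher (15.2%, against 10.1% of all tested loci) and 11 were lower (6.18%, against 12.4%). Limma with voom weights on the recovered reads called 6 higher and 0 lower (1.23% and 2.25% of all tested loci). Without overlap between the groups were 36 higher loci (20.2%, against 20.8% of all tested) and 17 lower loci (9.55%, against 20.8%).

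How many short loci pass depends on the libraries. When DMSO 1 was left out, 29 were higher and 6 lower, beside 7.7% and 13.9% of all tested loci. When DMSO 2 was left out, 8 were higher and 2 lower, beside 1.65% and 2.83%. Leaving out β-estradiol 1 gave 4 higher and 0 lower, beside 0.281% and 0.488%. Leaving out β-estradiol 2 gave 2 higher and leaving out β-estradiol 3 gave 3, with 0 lower in either, beside 0.0975% higher and 0.0861% lower of all tested loci in each. A fit with a single DMSO library assumes that it varies as the β-estradiol libraries do. With depth class (deeper or shallower libraries) as a term, 29 were higher (16.3%, against 9.8% of all tested loci) and 13 lower (7.30%, against 13.7%), and all 9 were among the 29.

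Over all 178 the median log2 change was 0.07 (quartiles -0.23 and 0.52), beside -0.02 over all tested loci. In total 100 of the 178 had a positive change, and 8408 of the 17429 tested loci did. The median SE was 0.32 for the short loci and 0.19 for the longer unique ones. Within the deeper libraries the median change was 0.03 for the short and 0.05 for all tested loci, and within the shallower libraries it was 0.26 and -0.07. The median of the short loci was above that of all tested loci in the shallower libraries only, where DMSO 2 is the one control. At least 2-fold higher within both depth classes were 13 short loci (7.30%, against 1.26% of all tested loci), and at least 2-fold lower 2 (1.12%, against 3.25%). All 9 that rose are among the 13. They passed the filter only through β-estradiol and had to be higher there, so the share of 7.30% is a description.

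**Figure D2:**
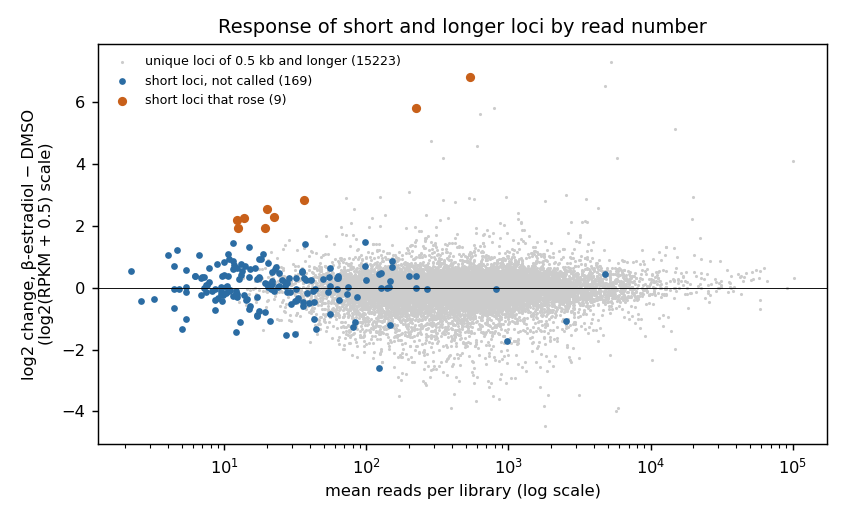
Log2 change on the log2(RPKM + 0.5) scale (β-estradiol minus DMSO) against mean reads per library (log axis) for 15223 longer unique loci (grey), 169 short loci that were not called (blue) and 9 that rose (orange). The short loci lie to the left, with a median of 18.9 reads, and 2 of the 9 stand at a log2 change above 5.

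All 9 loci that rose were nearly silent in DMSO. None had more than 3 reads in a DMSO library, and 4 had none at all in either. They reached 1.42 to 64.4 RPKM in β-estradiol, with log2 changes of 1.93 to 6.81 (limma adjusted p from 0.000273 to 0.0449). For the 4 without a read the fitted change is not a bound. With DMSO means of 0 to 0.0837 RPKM, all 9 passed the filter on the mean only through β-estradiol and so had to be higher there. Their number, and each share made from it, is a description.

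Pp3c6_7690 (0.315 kb) showed the largest increase. It stood at 0 and 0.167 RPKM in DMSO and at 64.0, 69.7 and 59.6 RPKM in β-estradiol, with 2 reads in DMSO in all and 2696 in β-estradiol. The log2 change of 6.81 (SE 0.18) had a limma adjusted p of 0.000273. The β-estradiol libraries lay close together, and none of the 2 nearest listed loci on each side was called. The next 2 loci by number, of 0.222 and 0.663 kb, had no read in any library, and the preceding locus of 3.178 kb averaged 1.79 ± 0.565 RPKM over the 2 DMSO libraries and 2.50 ± 0.119 RPKM over the 3 β-estradiol libraries (mean ± SD, as for all neighbours).

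Pp3c26_13257 (0.264 kb) stood at 0.0673 and 0.0998 RPKM in DMSO, 1 read in each library, and at 23.7, 37.8 and 37.3 RPKM in β-estradiol. The log2 change of 5.81 (SE 0.24) passed the test (limma adjusted p = 0.000933), and it was 5.41 between deeper libraries and 5.99 between shallower ones. Both neighbours rose as well. The locus that follows at a distance of 3 in locus number, 1.892 kb long, had 0.519 ± 0.103 RPKM in DMSO and 93.7 ± 7.99 RPKM in β-estradiol. Its log2 change in limma was 6.53 with an SE of 0.16. The preceding locus, 1.759 kb long with a maxMultiRatio of 0.061, had 0.0755 ± 0.0433 and 8.61 ± 1.56 RPKM, and its log2 change in limma was 3.97 with an SE of 0.18.

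With so few reads in DMSO, the ratios are known only loosely. With mates counted as 1 pair, rounded up in each library, 2 pairs of Pp3c26_13257 in DMSO faced 556 in β-estradiol. Corrected for depth, the ratio is 197, and its 95% interval (Clopper-Pearson, exact) runs from 54.4 to 1634. For Pp3c6_7690 it is 958 (172 to 37852). For a locus of 0.356 kb under Pp3c14 the ratio is 64.6 (11.3 to 2579), for a locus of 0.378 kb under Pp3c4 it is 39.0 (6.72 to 1570), and for a locus of 0.435 kb under Pp3c10 it is 17.0 (4.47 to 145). For the 4 without a read in DMSO, set to 3 pairs over both DMSO libraries against their reads in β-estradiol divided by 2, levels were at least 7.22-fold to 11.8-fold higher in β-estradiol.

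The other 7 loci reached a few RPKM. The locus of 0.356 kb under Pp3c14 stood at 0 and 0.0740 RPKM in DMSO and at 5.37, 3.28 and 2.03 RPKM in β-estradiol. A locus of 0.267 kb under Pp3c2 stood at 0 RPKM in both DMSO libraries and at 3.55, 3.51 and 1.00 RPKM in β-estradiol, and had the largest SE of the 9 (0.47). The locus of 0.378 kb under Pp3c4 stood at 0.0940 and 0 RPKM in DMSO and at 1.32, 3.02 and 2.55 RPKM in β-estradiol. In none of these did the groups overlap.

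A locus of 0.267 kb under Pp3c22 stood at 0 RPKM in DMSO and at 1.94, 2.47 and 1.40 RPKM in β-estradiol. The locus of 0.435 kb under Pp3c10 stood at 0.123 and 0 RPKM in DMSO and at 1.31, 1.57 and 2.16 RPKM in β-estradiol. The remaining 2 are direct neighbours under Pp3c14 and were both at 0 RPKM in DMSO. The one of 0.333 kb reached 1.34, 1.14 and 1.77 RPKM, and the one of 0.258 kb 1.80, 1.87 and 1.66 RPKM in β-estradiol.

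All 9 were higher by at least 1.54 on the log2 scale in the deeper and by at least 1.95 in the shallower libraries. Pp3c6_7690 and Pp3c26_13257 passed without any 1 of the 5 libraries, with a limma adjusted p of at most 0.00785 in those fits, and the other 7 lost the call in at least 1 of them. The limma adjusted p of the other 7 reached 0.0776 to 0.171 in these fits.

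**Figure D3:**
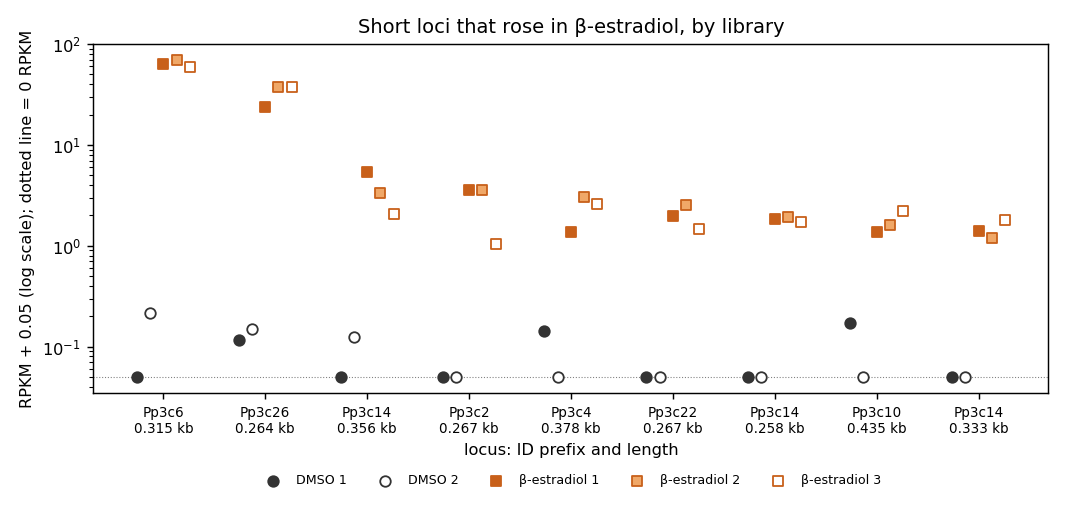
RPKM + 0.05 (log axis) of the 9 short loci that rose, by library, ordered by log2 change; circles are DMSO and squares β-estradiol libraries, each locus is named by ID prefix and length, and the dotted line marks 0 RPKM. The DMSO values lie at 0.167 RPKM or lower and the β-estradiol values at 1.00 RPKM or higher.

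Among all loci nearly silent in DMSO, short ones were common whether or not they rose. Of the 276 loci that rose, 16 had 3 reads or fewer in each DMSO library. Of these, 9 are the short unique loci, 2 are other loci under 0.5 kb with a maxMultiRatio above 0, and 5 are longer unique loci. A limit in reads favours short loci, so a limit per length was added after seeing the data. With a DMSO mean under 0.2 RPKM there were 29 rising loci, of which 9 are short (31.0%). Of all 44 tested loci that low in DMSO, 12 are short, so the share among the rising ones is close to that background. Among loci that low, 9 of the 12 short ones rose (75%) and 15 of the 22 longer unique ones (68.2%). Longer unique loci that rose had a median of 2.18 RPKM in DMSO, and 15 of the 231 were under 0.2 RPKM there. The rising short loci ranged from 0 to 0.0837 RPKM in DMSO.

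The change from off to on was found for 9 of the 178 (5.06%), beside 0.0918% of all tested loci, taking off as at most 3 reads in every library of a group and on as more in every library of the other. The reverse was found for 0 short loci and for 0.00574% of all tested loci. The filter is not symmetric, since a locus silent in DMSO needs a mean of 0.833 RPKM in β-estradiol, and a locus silent in β-estradiol needs 1.25 RPKM in DMSO. With off taken as 0 reads, 4 short loci went from off to on and 0 the other way. With at most 5 reads, 11 and 0 did.

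Another 3 short loci were as low in DMSO, with 3 reads or fewer per library, and were not called. They are 0.102, 0.153 and 0.171 kb long, had 0 to 15 reads in a β-estradiol library, and changed by 0.55 to 1.22 on the log2 scale (limma adjusted p from 0.153 to 0.627).

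No short locus passed as lower, and 11 were lower at an unadjusted p under 0.05. All 11 were without overlap between the groups, as were 20.8% of all tested loci in this direction. A choice by p-value in the same libraries favours groups without overlap, so this is a description. Their log2 changes ran from -1.54 to -0.50 (limma adjusted p from 0.0813 to 0.202). None of them was silent in β-estradiol, where they had 2 reads or more in each library. A locus of 0.297 kb under Pp3c21 stood at 18.1 and 14.5 RPKM in DMSO and at 4.75, 9.47 and 6.94 RPKM in β-estradiol (log2 change -1.19, SE 0.29, limma adjusted p = 0.0843). A locus of 0.288 kb under Pp3c22 stood at 10.3 and 8.60 RPKM in DMSO and at 2.05, 5.02 and 4.56 RPKM in β-estradiol (log2 change -1.26, SE 0.35, limma adjusted p = 0.111). In both, each β-estradiol value was below each DMSO value. With depth class as a term both passed (limma adjusted p = 0.0222 and 0.0228), and 8 of the 11 did in all. That fit called 13.7% of all tested loci lower.

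Calls upward were then set against longer loci of equal mean level, with the limit that all 9 rising short loci are in the test through β-estradiol alone. From 0.5 to 2 RPKM, 6 of 111 short loci rose (5.41%), and 42 of 4138 longer unique loci did (1.01%). From 2 to 10 RPKM it was 1 of 54 (1.85%) and 137 of 8205 (1.67%). From 10 to 50 RPKM it was 2 of 9, Pp3c6_7690 and Pp3c26_13257, and 45 of 2338 (1.92%). From 50 RPKM it was 0 of 4 and 7 of 542 (1.29%). The share of short loci was thus higher in 2 of the 4 level classes, nearly the same in another and 0 in the highest. Weighted to the levels of the short loci, 1.27% of the longer loci rose and 3.06% fell, against 5.06% and 0% of the short loci. These shares are descriptions, and no test of the difference was made.

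Equal level is not equal depth, since a short locus of 0.5 to 2 RPKM had a median of 12.2 reads per library and a longer one 154. At 10 to 30 reads per library, 6 of 78 short loci rose (7.69%) and 1 of 93 longer ones (1.08%), and 0 of either fell. At 30 to 100 reads it was 1 of 41 (2.44%) and 13 of 1115 (1.17%), with 0 short and 38 longer loci lower. None of the 39 short loci under 10 reads was called, and no longer unique locus that was tested lay in that range. Equal reads are not equal level either. At 10 to 30 reads the median was 1.17 RPKM for short loci and 0.640 RPKM for longer ones. The longer ones lie closer to the 0.5 added before the log, which narrows a log2 change, so the shares at equal reads are not like for like.

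The short loci also varied more between libraries of a treatment. The median SD on the log2 scale was 0.40 over the 2 DMSO and 0.35 over the 3 β-estradiol libraries, against 0.26 and 0.13 for longer unique loci. At 30 to 100 reads per library it was 0.41 and 0.34 for short loci and 0.27 and 0.20 for longer ones. At 100 to 300 reads the 15 short loci had 0.22 and 0.23, and the longer ones 0.27 and 0.15. Median levels at 30 to 100 reads were 2.95 RPKM for short loci and 0.816 RPKM for longer ones. At 100 to 300 reads they were 9.94 and 1.65 RPKM. The longer loci lie closer to the constant added before the log, which narrows their SD more. The SDs at equal reads are therefore not like for like. A library without a read was found for 22 short loci (12.4%) and for 0.184% of the longer ones. At 10 to 30 reads per library these shares were 11.5% and 4.30%. The first is 9 of 78 short loci, and the 6 that rose in this range are all among the 9. Each of the 6 lacked reads in a DMSO library and passed the filter through β-estradiol only. The difference in these shares is therefore not a separate sign of variation within a treatment.

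Some short loci followed the library number and not the treatment. In 7 of the 178 (3.93%), both libraries numbered 1 were at least 2-fold higher than each of the other 3, on the log2(RPKM + 0.5) scale, where 0.637% of all tested loci were. The reverse was found for 1 (0.562%), against 0.0574% of all tested loci. The libraries numbered 1 are also the deeper ones, so number and depth cannot be told apart.

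The extreme case was a locus of 0.213 kb under Pp3c4, the third most abundant of the 178 by its mean. It stood at 268 RPKM in DMSO 1 and 135 RPKM in β-estradiol 1, and at 0.990 RPKM in DMSO 2, 0 RPKM in β-estradiol 2 and 2.77 RPKM in β-estradiol 3. That is 3217 and 1605 reads in the libraries numbered 1 and 8, 0 and 22 in the others. A locus of 0.482 kb under Pp3c11 stood at 8.52 and 6.04 RPKM in the libraries numbered 1 and at 0.656, 0.105 and 0.333 RPKM in DMSO 2, β-estradiol 2 and β-estradiol 3. Both span a wide range within each treatment, and the difference between treatments did not pass in either (limma adjusted p = 0.771 and 0.650).

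In the other direction, a locus of 0.482 kb under Pp3c2 stood at 0.885 and 1.30 RPKM in the libraries numbered 1 and at 4.05, 3.84 and 3.61 RPKM in the rest. DMSO 2 alone stood high for a locus of 0.308 kb under Pp3c24, with 34.9 RPKM against 5.77 RPKM in DMSO 1 and 0.116, 3.54 and 5.39 RPKM in β-estradiol. Its log2 change of -2.61 is the largest decrease of the 178, and it did not pass (limma adjusted p = 0.254). With depth class as a term it passed (limma adjusted p = 0.000935).

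**Figure D4:**
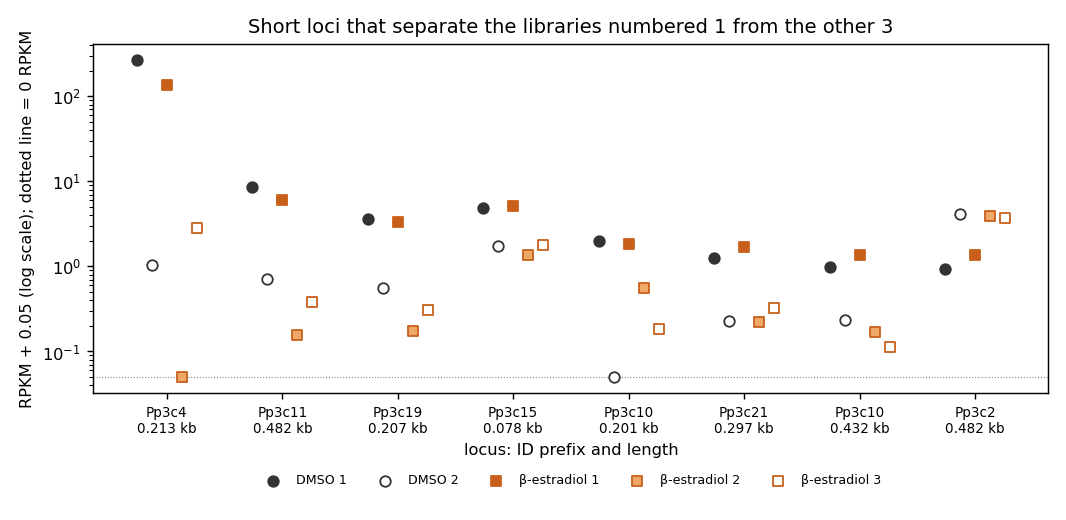
RPKM + 0.05 (log axis) by library for the 7 short loci at least 2-fold higher in both libraries numbered 1 (filled dark circle, filled dark square) than in each other library, and for the 1 locus with the reverse pattern at the right. The locus under Pp3c4 ranges from 268 RPKM in DMSO 1 to 0 RPKM in β-estradiol 2.

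By position, the short loci were spread over the genome. Each of the 27 Pp3c prefixes, the chromosomes in this ID scheme, held 1 to 12 of them (median 6), which is 0.218 to 2.19% of the unique loci tested under a prefix. Pp3c6 held 12 and Pp3c18 held 1, while 1 lay under a Pp3s prefix. The 9 that rose lay under 7 prefixes, with 3 under Pp3c14 and 1 under each of the other 6. There were 8 pairs of short loci listed next to each other, and in 5 of them both changed in the same direction.

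Most short loci had an expressed neighbour. A locus of at least 0.5 RPKM was listed directly next to 159 of the 178 (89.3%) and next to 85.1% of the longer unique loci. A neighbour with a higher mean level was found for 68.0% and 49.3%, and for 86.0% of the short unique loci below the level. The short loci have lower levels (median 1.42 RPKM against 3.67 RPKM), which makes a higher neighbour more likely. No comparison at equal level was made, so these shares do not tell about position. The nearest listed locus was under 10 away in locus number for 49 short loci (27.5%) and for 6.41% of the longer ones.

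Short loci tended to change as their neighbours did. Across 243 pairs of a short locus and a tested listed neighbour, log2 changes correlated at r = 0.61 (Spearman's rho 0.42) and had the same sign in 64.2%. Across 18948 such pairs of longer unique loci r was 0.19 (rho 0.13), with the same sign in 54.3%. The pairs of longer loci were not split by distance in locus number. Close neighbours were less common among longer loci, so the comparison is not at equal spacing. All points share the same 5 libraries and some loci enter more than 1 pair, so these are descriptions. Without the pairs in which the short locus rose, r was 0.39 (rho 0.35) over 230 pairs. Without rising neighbours as well, it was 0.38 (rho 0.35) over 224 pairs. The 230 pairs, which still include rising neighbours, were also split by distance. Here r was 0.66 (rho 0.56) over the 41 pairs under 10 apart in locus number and 0.33 (rho 0.30) over the 189 further apart. Strand is not marked by any described step of the library protocol. Whether strand was kept is therefore not known, and without it overlapping loci on opposite strands are not separated. No base coordinates were used, so overlap between loci was not tested.

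A rising locus was listed directly next to 11 of the 178 (6.18%), beside 1.79% of the longer unique loci. Of the 9 that rose, 5 had a rising neighbour, as did 37 of the 231 longer loci that rose (16.0%). Besides Pp3c26_13257 and the pair under Pp3c14, these were the locus of 0.356 kb under Pp3c14 and the one of 0.267 kb under Pp3c2. The former follows a locus of 3.808 kb that went from 1.12 ± 0.262 to 3.66 ± 0.155 RPKM (log2 change 1.37, SE 0.16, limma). The latter follows a locus of 0.779 kb that went from 0.0169 ± 0.0239 to 3.41 ± 0.396 RPKM (log2 change 2.92, SE 0.17, limma). The pair under Pp3c14 follows a locus of 1.057 kb that went from 0.0794 ± 0.00655 to 2.90 ± 0.472 RPKM (log2 change 2.54, SE 0.18, limma). Before that, a locus of 4.508 kb also rose (log2 change 1.12, SE 0.17, limma). After the pair come a locus of 0.165 kb below the filter and a rising one of 0.195 kb with a maxMultiRatio of 0.19.

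The other 6 next to a rising locus were not called themselves. Their log2 changes ran from -0.64 to 1.40 (median 0.95), and 4 of the 6 were positive. The remaining 4 of the 9, Pp3c6_7690 and those under Pp3c4, Pp3c22 and Pp3c10, had no called neighbour. Next to the one under Pp3c4, loci of 1.085 and 3.345 kb changed by 0.39 and -0.03 on the log2 scale. Next to the one under Pp3c10 lies a locus of 1.955 kb below the filter, which stood at 0.0998 ± 0.103 RPKM in DMSO and 0.677 ± 0.273 RPKM in β-estradiol.

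**Figure D5:**
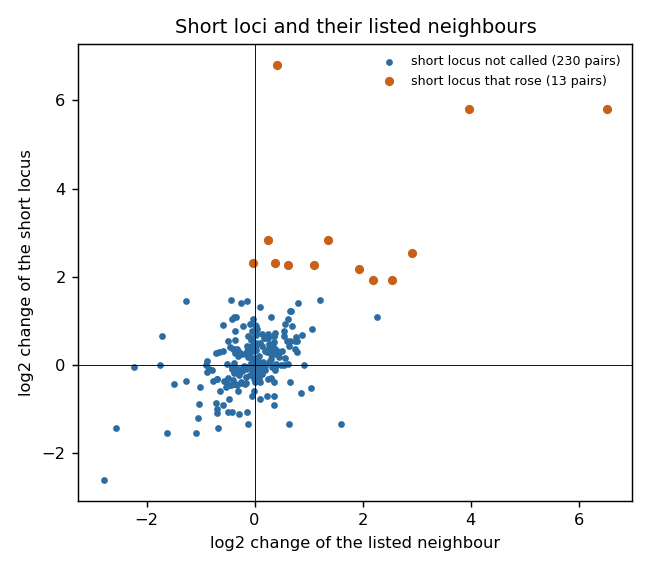
Log2 change of each short locus against that of its tested listed neighbour (both axes on the log2(RPKM + 0.5) scale), for 230 pairs of a short locus that was not called (blue) and 13 of a short locus that rose (orange). Pp3c26_13257 lies at the upper right at 5.81, with neighbours at 6.53 and 3.97, and Pp3c6_7690 at the top at 6.81 beside a neighbour at 0.41.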

How the data were processed

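The authors deposited an RPKM table and a table named for TMM normalization, each with 31775 loci, a length in kb and the fraction maxMultiRatio, which the authors deposited without a definition. RSEM, Bowtie2, Cufflinks, StringTie and HISAT2 were used, per the submitters' processing notes. Their versions and roles and the genome build are not given in the sources used. Columns were assigned by the labels, and 0 columns of sample values were left unused. Where maxMultiRatio is 0, RPKM times length times the total behind each library's RPKM gave whole reads in 100% of detected values, to a tolerance of 0.01 read.

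Limma 3.58.1 in R 4.3.3, two-sided, with trend and robust settings and no covariate, was fitted to log2(RPKM + 0.5) of all 17429 loci averaging 0.5 RPKM or more. An exact permutation of 2 against 3 libraries cannot go below p = 0.1. Named by ID are the 2 members with the largest increase among called members without overlap and with at least 1 RPKM in the higher group; 0 qualified as decreases. Of the IDs, 0 of 31775 matched the reference table of 27567 genes. The members and rules were chosen with earlier results of these data known. Alternatives were other pseudocounts, filters, scalings, lengths, voom, terms and left-out libraries.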

Additional observations from a re-analysis of the deposited data

How the results depend on the processing

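The number of short loci that rose (9) stayed within 1.5 times with pseudocounts of 0.1 and 1, no filter, a filter at 1 RPKM, the TMM table, median scaling, limma without trend and robust settings, voom, unique loci alone, and lengths under 0.4 or 0.6 kb (6 to 11), and 0 fell in each of these. It was 3 with at least 30 reads per library, which left 61 of the short loci in the test. With depth class as a term 29 rose and 13 fell, and with the replicate block 20 rose and 12 fell (3.35% and 6.98% of all tested loci). No DMSO library has the number of β-estradiol 3, so β-estradiol 3 adds nothing to the contrast of the block fit. That contrast rests on 2 against 2 libraries, with 1 residual degree of freedom per locus. The log2 change of Pp3c6_7690 was 6.86 both in the block fit and without β-estradiol 3. Loci described as not passing did pass with the replicate block: those under Pp3c24 (0.308 kb, limma adjusted p = 0.000163), Pp3c4 (0.213 kb, 0.0112), Pp3c25 (0.472 kb, 0.0246), Pp3c22 (0.288 kb, 0.0421) and Pp3c21 (0.297 kb with 18.1 RPKM in DMSO 1, 0.0466). Without 1 library, 2 to 29 rose and 0 to 6 fell. All 9 were among those called in the fits with the depth class, with the replicate block and without DMSO 1. The replicate number was not taken as a pairing, since the labels do not say what a number stands for. Deviations from the group means correlated at r = 0.615 for the libraries numbered 1 and at 0.541 for those numbered 2. For DMSO 2 and β-estradiol 3 r was 0.406. Deviations within a group sum to 0, and those of the 2 DMSO libraries are exact opposites. These correlations are therefore tied to each other and cannot decide whether a number marks a pairing. With off taken as 0 reads, 4 short loci were off in DMSO only. The causes of these differences were not tested. Weighted by reads and not by RPKM, 1.14% of longer loci rose, against 1.27%. Of the 39 short loci with under 10 reads per library 0 were called.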
